A study of Danio rerio with 43 samples.

Results

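The change of polyadenylated RNA between the 1-cell and the 256-cell stage was measured in zebrafish embryos homozygous for a mutant allele of rif1. The comparison rested on 3 libraries of rif1 mutant embryos at the 256-cell stage against 3 libraries of rif1 mutant embryos at the 1-cell stage, which are 6 of the 43 libraries of the series. They were chosen by the genotype and stage in their labels, with no use of a measured value. The series profiled wild-type and rif1 mutant embryos at 6 stages with a 3′ end method (QuantSeq), in which each read comes from near the poly(A) tail of a transcript. Both groups were pools of whole embryos of the Tab5 strain, homozygous for the rif1 allele omf201. The 1-cell embryos were zygotes collected from 0 to 0.5 hours after fertilisation (hpf), and the 256-cell embryos were blastulae collected from 2 to 2.5 hpf. The same change in wild-type Tab5 embryos (4 libraries at the 1-cell and 3 at the 256-cell stage) served as the reference, and mutant embryos at dome (4 to 4.5 hpf, 3 libraries) gave the level at the following stage. The labels call the mutant embryos homozygous and do not give the genotype of their mothers or the number of embryos in a pool.

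A fish egg is loaded with messenger RNA made in the ovary, and the first rapid divisions run on this maternal supply before the embryo's own genome is switched on. During cleavage, stored maternal messages can gain a poly(A) tail and enter translation, while others lose their tail and are degraded. A library primed on poly(A) reads both the amount of RNA and the presence of a tail, and these cannot be told apart here. Rif1 is a chromatin protein known for controlling the timing of DNA replication and for its part in the DNA damage response.

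The 6 libraries held 5834353 to 9224450 counts, and replicates correlated with r = 0.920 to 0.956 on log2 counts scaled to library depth (CPM). All replicate pairs differed beyond sampling noise, so none was the same library counted again. Separate libraries made from the same pool could also differ in this way, and the labels do not settle it. Mutant 1-cell replicate 3 stood somewhat apart from the other 1-cell mutants (r = 0.920 and 0.923, against 0.946 between these). The labels name no batch, but the 1-cell libraries of both genotypes carry a numbering of their own. Whether they were prepared with the later stages is not stated, so the stage and a batch of 1-cell libraries cannot be told apart in any change given here. Nothing in the labels ties replicates to separate clutches, so the p-values measure the spread between these libraries only. Levels are CPM scaled by trimmed mean of M values (TMM) over the 20 libraries of the first 3 stages.

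The transcript of rif1 itself was low in the mutants throughout. It stood at 4.34, 5.55 and 5.53 CPM in the mutant 1-cell libraries and at 2.42, 2.23 and 5.04 CPM in the mutant 256-cell libraries. These ranges overlapped, and the log2 change of -0.69 (SE 0.67) did not pass the test (adjusted p = 0.427). In wild type the level rose from 97.5 ± 22.5 CPM (SD, n = 4) to 249.9 ± 23.2 CPM (SD, n = 3), and the mutant change was below it by 2.03 log2 units (SE 0.35, adjusted p = 0.000557). Every mutant library of both stages lay below every wild-type library.

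The mutant transcriptome changed broadly over these first divisions, with somewhat more falls than rises. Of 11598 genes tested with edgeR's quasi-likelihood test, 5282 (45.5%) changed at a Benjamini-Hochberg adjusted p under 0.05. Of these, 2483 (21.4%) were higher and 2799 (24.1%) were lower at the 256-cell stage. A change of at least 1 log2 unit was reached by 1684 rises (14.5%) and 2002 falls (17.3%). Changes of at least 2 log2 units were more often falls (984) than rises (528). With library totals in place of TMM, the median gene moved up by 0.12 log2 units and the balance turned to 2837 rises and 2459 falls, so the excess of falls depends on the scaling.

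The groups did not overlap for 2461 of the rises and 2717 of the falls. With 3 libraries per group a call favours this, so these counts are no separate evidence. The share without overlap over all genes tested is not given. Larger rises and falls started from different levels, beside a median of 22.2 CPM over all genes tested. Over the 1684 larger rises, the median level went from 16.1 CPM at the 1-cell stage to 51.9 CPM at the 256-cell stage. Over the 2002 larger falls, it went from 35.8 to 8.27 CPM. Choosing genes by their change between these same libraries favours a low start for rises and a high start for falls. These medians are therefore a description only. Among the 1101 genes averaging over 200 CPM, 24.8% rose and 40.4% fell, whereas among the 2974 genes between 50 and 200 CPM 33.2% rose and 27.3% fell. Below 2 CPM only 4.33% rose and 8.32% fell, in a range where counts limit what the test can call. Leaving out mutant 1-cell replicate 3 gave 5463 calls, and leaving out mutant 256-cell replicate 3 gave 4445.

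**Figure D1:**
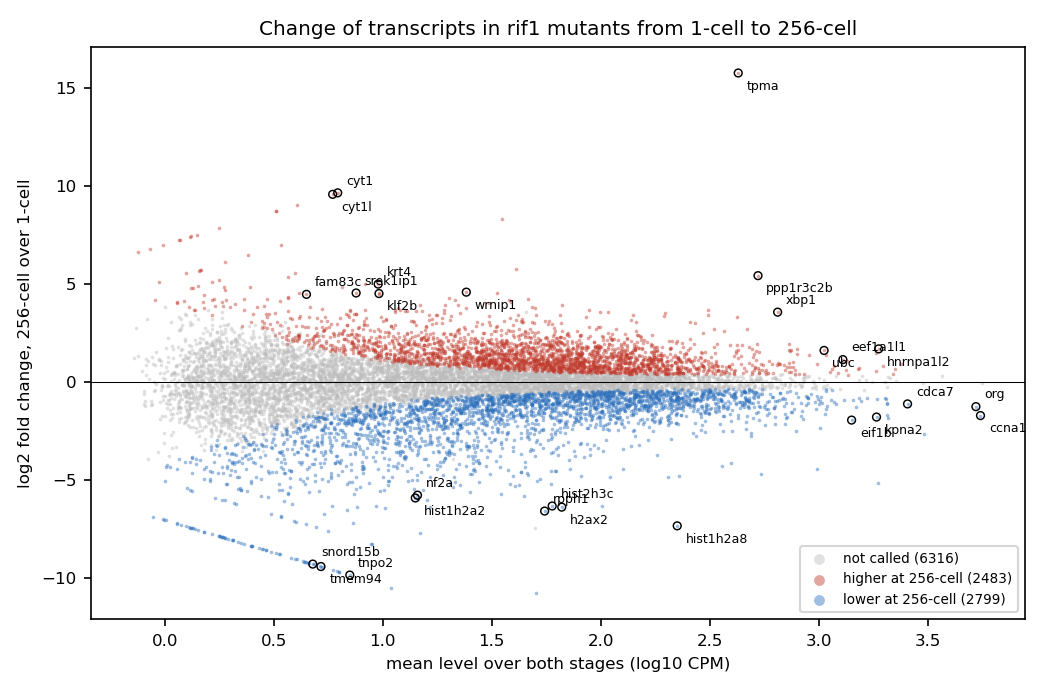
Each point is one of the 11598 genes tested in the mutants, with its mean level over both stages (log10 CPM) on the x axis and its log2 fold change (256-cell over 1-cell) on the y axis; red and blue points passed an adjusted p of 0.05. Named genes are circled; tpma stands alone at the top right, the histone gene hist1h2a8 and the RNase P RNA rpph1 lie low, and the slanted line of points at the lower left holds genes with no count in any 256-cell library.

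The largest rises were in genes of varied function, among them regulators of glycogen metabolism, DNA repair and splicing and genes of the later epidermis. The greatest among uniquely named genes with at least 10 counts summed over the 1-cell libraries was ppp1r3c2b, a regulatory subunit of protein phosphatase 1. It stood at 14.8, 39.9 and 16.03 CPM at the 1-cell stage and at 1442, 1117 and 536 CPM at the 256-cell stage. The log2 change was 5.42 (SE 0.52, adjusted p = 4.06e-05), with no overlap between the libraries of the stages. Here and below, genes named for the largest changes had to show no such overlap. The lack of overlap is therefore no separate evidence for them. By dome it stood at 202 ± 29.1 CPM (SD, n = 3). Transcripts of wrnip1, an ATPase that acts at stalled replication forks, went from 2.51, 2.37 and 0.709 CPM to 46.8, 40.4 and 52.5 CPM. Those of srek1ip1, named for its binding to a splicing regulator, went from 0.685, 0.309 and 0.851 CPM to 14.3, 14.6 and 14.6 CPM. Every 256-cell library lay far above every 1-cell library for both genes, with log2 changes of 4.58 (SE 0.40, adjusted p = 1.17e-06) and 4.53 (SE 0.58, adjusted p = 2.7e-05). A further rise was that of fam83c (4.46, SE 0.95, adjusted p = 0.00156).

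Of the 15 rises that had no count in any 1-cell library, tpma was the most abundant. This gene encodes an alpha-tropomyosin, an actin-binding protein of muscle and other cells. It was at 0 in all 3 mutant 1-cell libraries and at 452, 1457 and 659 CPM in the 256-cell libraries. Set against a floor of 3 counts per library, this was at least 2386-fold higher. All 4 wild-type 1-cell libraries were also at 0, and the wild-type 256-cell libraries stood at 535, 569 and 635 CPM. The mutant level at dome was 1541 ± 403 CPM (SD, n = 3).

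Gains in CPM were ranked among uniquely named genes that changed by at least 1 log2 unit without overlap between the stages. The 5 greatest gains were in genes of varied function. The RNA-binding protein gene hnrnpa1l2 gained most, from 828, 1005 and 824 CPM to 2936, 2827 and 2904 CPM (log2 change 1.68, SE 0.14, adjusted p = 6.46e-07). The transcription factor gene xbp1, which acts in the unfolded protein response, went from 105, 98.5 and 96.9 CPM to 1119, 1161 and 1314 CPM (3.56, SE 0.15, adjusted p = 4.66e-09). The replicates of both genes differed by far less than the stages did. The polyubiquitin gene ubc (519 ± 18.9 to 1602 ± 58.1 CPM, SD, n = 3) and the elongation factor gene eef1a1l1 (799.8 ± 125 to 1786 ± 24.2 CPM, SD, n = 3) also rose. Apart from ppp1r3c2b, which is also among these 5 genes, their levels were higher again at dome, at 7878, 1511, 3392 and 7414 CPM.

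The greatest losses in CPM, ranked under the same conditions, were in transcripts that are very abundant in the egg. The embryonic cyclin A gene ccna1 stood at 7867, 9532 and 7965 CPM at the 1-cell stage and at 2701, 2351 and 2789 CPM at the 256-cell stage. The stages were far apart in every library, and the log2 change was -1.72 (SE 0.14, adjusted p = 6.97e-07). The oogenesis-related gene org fell from 6283, 8060.4 and 7874 CPM to 3099.6, 2944 and 3374 CPM (-1.26, SE 0.14, adjusted p = 9.45e-06). The importin alpha gene kpna2, whose product carries proteins into the nucleus, fell from 2853 ± 34.6 to 837 ± 42.9 CPM (SD, n = 3). The translation initiation factor gene eif1b fell from 2245 ± 324 to 591 ± 53.1 CPM, and cdca7, a gene of dividing cells, from 3492 ± 723 to 1629 ± 24.2 CPM (SD, n = 3). By dome, org and kpna2 had dropped further to 648 and 362 CPM, whereas cdca7 stood at 3389 CPM, close to its 1-cell level.

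**Figure D2:**
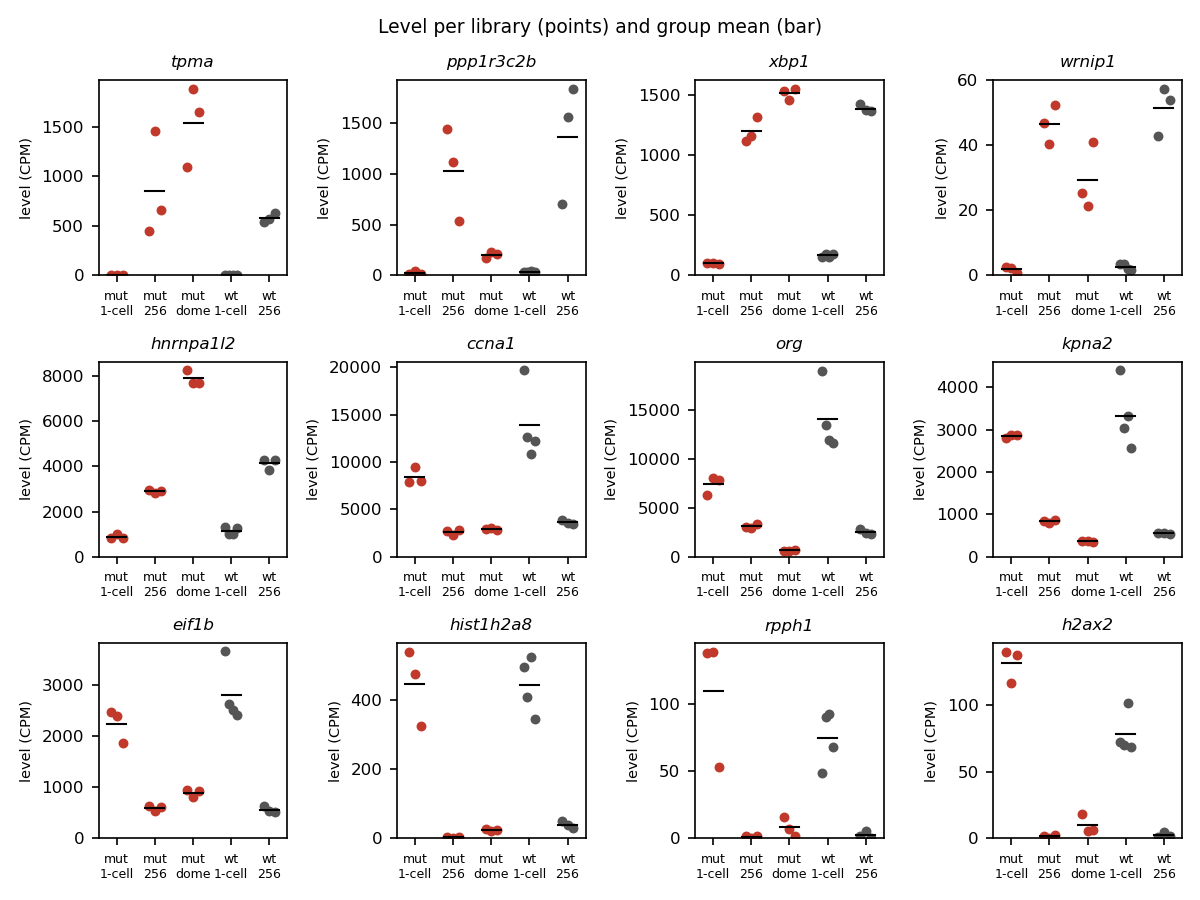
Level in CPM (linear y axis from 0) of 12 named genes in each library of rif1 mutants at the 1-cell, 256-cell and dome stages (red) and of wild type at the 1-cell and 256-cell stages (grey); bars are group means. In mutants tpma, ppp1r3c2b, xbp1, wrnip1 and hnrnpa1l2 are higher and the other 7 genes lower in every 256-cell library than in any 1-cell library. Such a lack of overlap was a condition for naming genes by the size of their change.

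Among genes with at least 10 counts summed over the 256-cell libraries, most of the 6 largest falls were in RNAs that usually end without a poly(A) tail. The H2A histone gene hist1h2a8 fell from 539, 476 and 325 CPM to 4.29, 0 and 3.68 CPM (log2 change -7.34, SE 0.60, adjusted p = 1.55e-05). The RNA component of the tRNA-processing enzyme RNase P, rpph1, fell from 138, 138 and 53.2 CPM to 1.76, 0 and 1.499 CPM (-6.59, SE 0.60, adjusted p = 4.07e-06). Both were near or at 0 in every mutant 256-cell library. In wild type hist1h2a8 fell less, from 444 to 39.8 CPM. The mutant change was below the wild-type change by 3.84 log2 units (SE 0.63, adjusted p = 0.00443). For rpph1, which fell from 74.7 to 2.65 CPM in wild type, this difference was not called (adjusted p = 0.342). The histone genes h2ax2 (-6.39, SE 0.49), hist2h3c (-6.33, SE 0.29) and hist1h2a2 (-5.92, SE 0.72) fell likewise. The remaining gene among the 6 largest falls was nf2a, whose product merlin acts in the Hippo pathway, at 34.6, 13.8 and 36.9 CPM and then 0.661, 0 and 0.818 CPM (-5.78, SE 0.66). The copies of histone genes are near-identical, so single entries are uncertain. A further 67 falls left no count in any 256-cell library. Set against 3 counts per library, the import receptor gene tnpo2 was at least 35.8-fold lower, the membrane protein gene tmem94 at least 26.4-fold lower and the small nucleolar RNA snord15b at least 24.2-fold lower.

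Lists of such RNAs were drawn up after these values had been seen, so their counts are a description. Of 36 tested entries for the RNA of the signal recognition particle, which targets proteins to the endoplasmic reticulum, 34 fell and none rose. Their summed level was 2451, 2464 and 1669 CPM in the 1-cell mutants and 162, 88.2 and 155 CPM in the 256-cell mutants. Among 15 numbered core and linker histone genes 10 fell and 1, hist2h2l, rose, and the summed level went from 798 to 1255 CPM down to 71.6 to 104 CPM. Of 21 small nucleolar RNAs, which guide the modification of ribosomal RNA, 13 fell and 1 rose, with summed levels of 992 to 1305 CPM and then 194 to 250.5 CPM. None of the 3 summed levels overlapped between the stages. The median log2 changes of these lists were -3.87, -3.76 and -2.13, beside -0.02 over all genes tested. Of all genes tested, 24.1% fell and 21.4% rose. In the 256-cell mutants, 36 of all 80 signal recognition particle entries and 48 of all 76 small nucleolar RNA entries had no count. Such entries can pass the filter on low counts only through the 1-cell libraries, so they could not be called higher. Many signal recognition particle entries stand for the same RNA, so single entries are uncertain. With at least 10 counts required in every library, a filter that removes genes that fell to low counts, 13 signal recognition particle entries and 5 numbered histone genes were called lower.

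Other RNAs of these classes gave mixed counts, beside 21.4% rises and 24.1% falls over all genes tested in mutants. Of 9 variant histone genes, many of whose messages carry poly(A) tails, 3 fell, h2ax2 among them, and 1 rose in mutants, while 5 fell and 1 rose in wild type. Their summed level in mutants was 5642 to 6756 CPM and then 5672 to 6075 CPM. Within them h2az2b, a variant linked to gene activation, rose from 105, 160.2 and 111 CPM to 815, 829 and 795 CPM, while h3f3a fell by 0.86 log2 units (SE 0.14). Of 9 tested entries for the U1 spliceosomal RNA, a multicopy RNA whose entries are uncertain, 2 fell and 1 rose. In wild type, 39 of 40 signal recognition particle entries, 11 of 15 numbered histone genes and 12 of 22 small nucleolar RNAs fell. Over all genes tested in wild type, 25.1% fell and 24.1% rose. The mutant change was below the wild-type change for 8 of 45 signal recognition particle entries (17.8%), beside 3.07% over all genes tested. It was below for 1 of 16 numbered histone genes and 2 of 24 small nucleolar RNAs. For none of these entries was it called above, beside 3.81% over all genes tested.

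**Figure D3:**
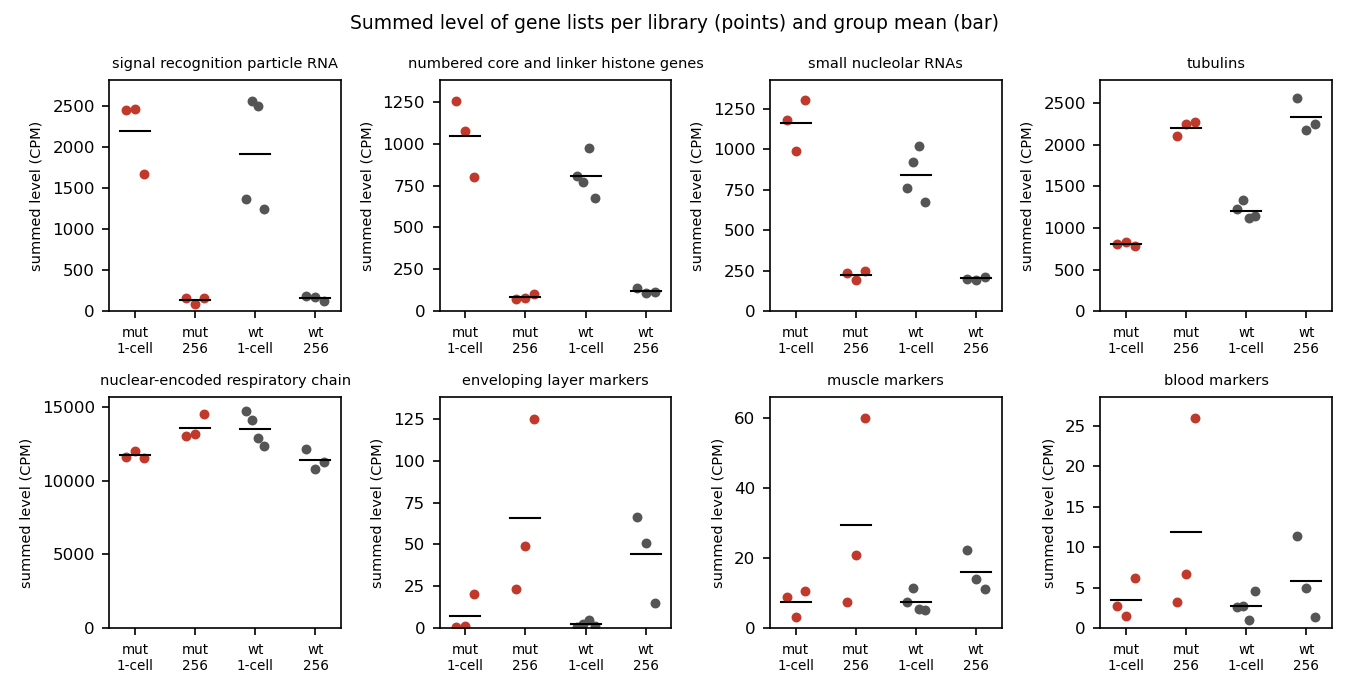
Summed level in CPM (linear y axis from 0) of 8 gene lists in each mutant (red) and wild-type (grey) library at the 1-cell and 256-cell stages, with group means as bars. The 3 untailed RNA classes are lower at the 256-cell stage in both genotypes, tubulins are higher in both, the respiratory chain is higher in mutants and lower in wild type, and the enveloping layer, muscle and blood markers are highest in mutant 256-cell replicate 3.

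Genes that store, read or degrade maternal messages went both ways. Of 68 tested members, 23 rose (33.8%) and 17 fell (25%), with a median of 0.09. Over all genes tested, 21.4% rose and 24.1% fell. The largest rise was zfp36l2, whose product binds AU-rich elements and promotes decay, from 12.4, 15.9 and 9.22 CPM to 186, 162 and 148 CPM (3.69, SE 0.23, adjusted p = 6.96e-08). The translational repressor gene eif4enif1 went from 81.5, 109 and 61.2 CPM to 362, 364 and 370.1 CPM (2.096, SE 0.19, adjusted p = 1.59e-06). Both genes lay higher in each 256-cell library than in any 1-cell library.

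Within this list, some further members are named here because of their values. The deadenylase scaffold genes cnot1 (-1.83) and cnot2 (-1.85) and the tail-elongating factor genes cpeb1 (-1.82) and tent2 (-1.68) fell on the log2 scale. The deadenylase gene cnot6 (1.47), the oocyte cap-binding gene eif4e1b (1.39) and the poly(A)-binding gene pabpc1l (1.16) rose, whereas its relative pabpc1a fell (-0.99). Germ plasm genes, whose RNA or protein gathers in the granules that mark future germ cells, counted 6 rises and 9 falls among 27. These shares were 22.2% and 33.3%, beside 21.4% and 24.1% over all genes tested. In 1 fit of all 12 groups of the series, 5 members were called higher and 4 lower. The piRNA pathway genes pld6 (2.43, SE 0.39) and tdrkh (1.90, SE 0.20) rose, although pld6 was not called in that fit (adjusted p = 0.0597). An entry that shares the symbol hook2 (ENSDARG00000039309), and is therefore uncertain, fell by 4.23 (SE 0.65).

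**Figure D4:**
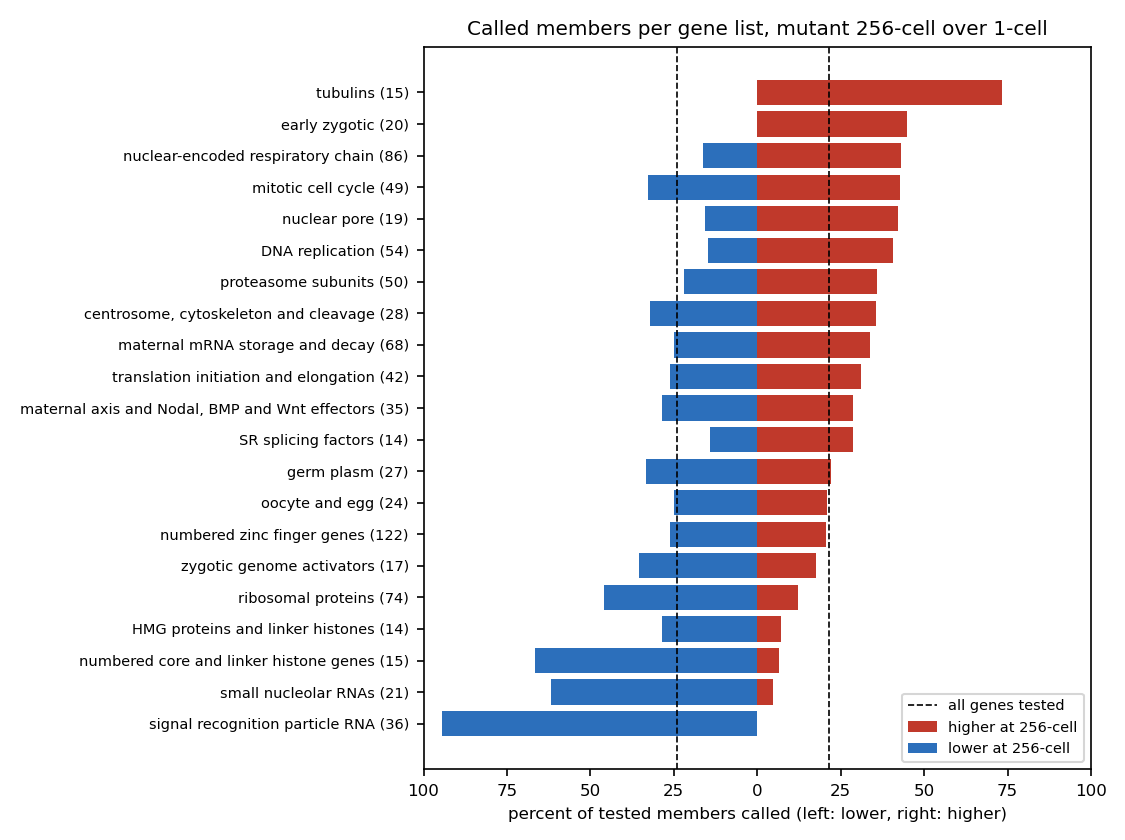
For each gene list drawn, bars give the percentage of tested members higher (right, red) or lower (left, blue) at the 256-cell stage in rif1 mutants. Calls are at an adjusted p under 0.05. All lists drawn have at least 10 tested members (number in brackets), and not every list of that size is drawn. Dashed lines mark the same percentages over all genes tested (21.4% higher and 24.1% lower); tubulins reach 73.3% higher and signal recognition particle RNA 94.4% lower.

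Genes of cell division changed in both directions. Of 49 mitotic genes 21 rose (42.9%) and 16 fell (32.7%), beside 21.4% and 24.1% over all genes tested. The kinase gene cdk1, which drives entry into mitosis, rose from 25.1, 28.6 and 19.9 CPM to 93.4, 114 and 107 CPM (2.07, SE 0.21, adjusted p = 3.6e-06). The spindle checkpoint gene bub3 fell from 548, 652 and 839 CPM to 128, 98.9 and 138 CPM (-2.51, SE 0.19, adjusted p = 3e-07), and fbxo5, which encodes the anaphase-promoting complex inhibitor Emi1, from 1084, 1089.5 and 1245 CPM to 267, 258 and 270.4 CPM (-2.13, SE 0.14). For all of them the stages were well separated. The cyclin genes moved in different directions: ccna1 and ccnb2 (-1.101) fell, and ccnb1 (0.80) and ccnd1 (1.81) rose.

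DNA replication genes were more often higher than lower, with 22 rises and 8 falls among 54 (30 and 6 with library totals). With TMM these shares were 40.7% and 14.8%, beside 21.4% and 24.1% over all genes tested. The replicative helicase subunit gene mcm3l went from 22.8, 18.4 and 24.1 CPM to 125, 147 and 129 CPM (2.59, SE 0.20, adjusted p = 3.11e-07). The polymerase epsilon subunit gene pole2 rose as well (2.19, SE 0.38), and gins4, a subunit of the replicative helicase, fell (-2.42, SE 0.28). The replicative helicase genes did not move together, as mcm7 fell from 1274 to 382 CPM and mcm4 rose from 139.6 to 239.8 CPM. An entry that shares the symbol rrm2 (ENSDARG00000020711), the ribonucleotide reductase subunit, was at 0, 0 and 0.709 CPM and then at 70.9, 112 and 27.7 CPM (8.33, SE 0.82, adjusted p = 6.8e-06). In wild type this entry was at 1.59 and 0.0497 CPM, which gave an interaction of 13.12 (SE 2.03, adjusted p = 0.0028) that rests on 5 counts in the 1-cell mutants and 1 count in the 256-cell wild type. Because its symbol is shared, the entry is uncertain.

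Tubulins, the building blocks of spindle microtubules, and their nucleation complex were higher in mutants wherever they changed. Of 15 tested members 11 rose (73.3%) and none fell, beside 21.4% and 24.1% over all genes tested. In the 1-cell mutants 7 of the 23 entries on the list had no count, and such entries could not be called lower. In wild type 8 of 15 rose (53.3%) and 3 fell (20%), beside 24.1% and 25.1% over all genes tested there. The summed level in mutants went from 806, 827 and 782 CPM to 2104, 2251 and 2269.7 CPM. The alpha-tubulin gene tuba1b went from 6.28, 4.73 and 7.66 CPM to 83.7, 91.9 and 95.1 CPM (3.84, SE 0.25, adjusted p = 1.09e-07), and the beta-tubulin gene tubb4b from 115, 111 and 86.6 CPM to 608, 627 and 669.5 CPM (2.59, SE 0.16, adjusted p = 5.08e-08). In each case the stages were far apart. The centriole gene cetn4 rose (2.13, SE 0.22), and the centrosome gene cep192 fell (-1.85, SE 0.22). In all, 10 of 28 centrosome, cytoskeleton and cleavage genes rose (35.7%) and 9 fell (32.1%), beside 21.4% and 24.1% over all genes tested. Among these rises, tuba1a, tuba1b, tuba8l4, tubb4b and an entry with the shared symbol tubb2b (ENSDARG00000098591) are counted in both lists.

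Ribosomal protein genes were more often lower, and nuclear genes of the respiratory chain more often higher. Of 74 ribosomal protein genes 34 fell (45.9%) and 9 rose (12.2%), with a median of -0.36. Over all genes tested, 24.1% fell and 21.4% rose. The summed level of ribosomal protein genes went from 24174, 22713 and 23603 CPM to 17239, 16946 and 20367 CPM. The large-subunit gene rpl21 fell from 897, 749 and 692 CPM to 163, 117 and 173 CPM (-2.39, SE 0.18, adjusted p = 2.49e-07), while rps9 rose (1.80, SE 0.31). Of 42 translation factor genes 13 rose and 11 fell, among them naca, a ribosome-associated chaperone, with 104, 83.2 and 71.1 CPM and then 10.1, 0.745 and 1.64 CPM (-4.32, SE 0.71). The respiratory chain genes counted 37 rises (43.0%) and 14 falls (16.3%) among 86, with a median of 0.41. The complex I assembly gene ndufaf8 went from 3.19, 4.53 and 3.97 CPM to 31.2, 24.3 and 27.4 CPM (2.80, SE 0.35, adjusted p = 2.25e-05). Their summed level was higher in every 256-cell library (13015 to 14471 CPM) than in any 1-cell library (11502 to 12013 CPM).

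Smaller complexes gave mixed counts, beside 21.4% rises and 24.1% falls over all genes tested. The proteasome, which degrades ubiquitin-tagged proteins, had 18 rises (36%) and 11 falls (22%) among 50 subunit genes, led by psma2 (2.02, SE 0.19). The nuclear pore had 8 rises (42.1%) and 3 falls (15.8%) among 19, with nup133 up (2.13, SE 0.33) and nup93 down (-4.91, SE 1.03). SR splicing factor genes had 4 rises (28.6%) and 2 falls (14.3%) among 14, of which srsf9 rose by 1.17 (SE 0.18). Numbered zinc finger genes had 25 rises and 32 falls among 122, near the percentages over all genes.

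Maternal regulators of the embryonic axis had 10 rises and 10 falls among 35 (28.6% each), beside 21.4% and 24.1% over all genes tested. Receptor entries that share the symbols acvr2b (ENSDARG00000044422, -4.86, SE 0.21) and acvr1b (ENSDARG00000052142, -3.58, SE 0.43), which receive activin and Nodal signals, had the largest falls. The first of these went from 231, 172 and 237 CPM to 6.94, 7.597 and 7.904 CPM; because the symbols are shared, both entries are uncertain. The Nodal partner gene gdf3 rose from 256 to 596 CPM (1.20, SE 0.20).

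Of 17 genes for activators of the zygotic genome and their cofactors, 6 fell (35.3%) and 3 rose (17.6%). Over all genes tested, 24.1% fell and 21.4% rose. The chromatin reader gene brd2b, which binds acetylated histones, fell from 19.4, 22.1 and 24.97 CPM to 1.98, 1.64 and 2.18 CPM (-3.53, SE 0.41, adjusted p = 1.15e-05). The stress-response gene sesn2, from a separate list of p53 pathway genes, rose from 8.44, 10.8 and 6.67 CPM to 108, 101.1 and 68.4 CPM (3.39, SE 0.27, adjusted p = 5.36e-07). Of 16 tested members of that list, 3 rose and 4 fell. Its summed level went from 2167 to 2603 CPM in the 1-cell mutants down to 1477 to 1580 CPM in the 256-cell mutants. Among 14 genes for HMG chromatin proteins and linker histones 1 rose (7.14%), hmgb2b (1.78, SE 0.15), and 4 fell (28.6%), including hmgn7 (-1.55, SE 0.16).

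Genes known for early zygotic expression were higher where they changed. Of 58 entries on the list only 20 passed the filter on low counts, and 9 of these rose (45%) and none fell. Over all genes tested, 21.4% rose and 24.1% fell. In the 1-cell mutants 25 of the 58 entries had no count. Such entries can pass the filter only through the 256-cell libraries, so they could not be called lower. The Krüppel-like factor gene klf2b went from 0, 0.617 and 1.84 CPM to 11.6, 25.2 and 18.5 CPM (4.50, SE 0.79, adjusted p = 0.000331). The transcription factor gene cebpb went from 0.685, 1.85 and 0.426 CPM to 13.98, 11.02 and 14.6 CPM (3.66, SE 0.62, adjusted p = 0.000274). The SoxB1 transcription factor gene sox3, counted among the activators, went from 3.54, 5.66 and 2.41 CPM to 17.9, 18.9 and 20.03 CPM (2.25, SE 0.43, adjusted p = 0.000648). All 3 genes were low at the 256-cell stage and reached 107, 488 and 616 CPM at dome.

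Of 10 entries for markers of the enveloping layer, the first epithelium of the embryo, 6 were tested. Of these 5 rose and none fell, beside 21.4% and 24.1% over all genes tested. In the 1-cell mutants 5 of the 10 entries had no count. Such entries can pass the filter on low counts only through the 256-cell libraries, so they could not be called lower. The keratin gene krt4 was at 0, 0 and 1.84 CPM and then at 4.73, 12.4 and 38.3 CPM (4.99, SE 1.17, adjusted p = 0.00416). The keratin genes cyt1 and cyt1l had no count at the 1-cell stage and were at least 34.7-fold and 32.9-fold higher at the 256-cell stage, with 2.202, 9.24 and 25.9 CPM and 2.86, 10.7 and 21.8 CPM. These values differed widely between replicates, with the highest of each gene in replicate 3. Embryonic globins (hbae1.1, hbae3 and hbbe3), which mark blood formed long after this stage, were also highest in replicate 3. They stood at 2.08, 5.83 and 26.2 CPM on library totals in the mutant 256-cell libraries, with no count in any mutant 1-cell library, and at 1.28 to 9.54 CPM in the wild-type 256-cell libraries. The parvalbumin genes pvalb1 and pvalb2 of muscle stood at 1.101, 5.14 and 28.2 CPM.

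Set against their mean level in mutants at 24 hpf, replicate 3 held 0.340% of the globins, 0.437% of the parvalbumins and 0.371% of krt4. Across the whole lists, muscle markers summed to 3.09 to 10.6 CPM in the 1-cell and 7.60 to 59.8 CPM in the 256-cell mutants, and blood markers to 1.54 to 6.24 and 3.19 to 25.9 CPM. None of the 3 muscle markers and the 1 blood marker tested was called. Without mutant 1-cell replicate 3, where more markers passed the filter on low counts, 2 of 7 muscle markers and 3 of 4 blood markers were called higher. In that setting 2661 of all 12394 genes tested were called higher. In pools of whole embryos, more cells of a type and more RNA per cell cannot be told apart. Of the 2483 rises, 14 had a 256-cell mean under 1% of their highest later mutant stage, among them krt4, krt8, krt92, cyt1, cyt1l, apoeb, apoc1, apela, hspb1 and the tubulin gene tuba1a. The part of a trace of later-stage RNA in these rises was not tested. Without mutant 256-cell replicate 3, apoeb was no longer called (adjusted p = 0.0724), and 7 early zygotic genes and 4 enveloping layer markers rose. With at least 10 counts required in every library, 3 early zygotic genes and no enveloping layer marker were called. The mean 256-cell levels of klf2b, cebpb and sox3 were 13.2%, 3.04% and 2.32% of their highest later stage.

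Genes of oocytes and of the egg coat had 5 rises (20.8%) and 6 falls (25%) among 24, close to the 21.4% and 24.1% over all genes tested. The kinase gene mos, known for holding vertebrate eggs in meiotic arrest, fell from 935, 877 and 715 CPM to 203, 221 and 233 CPM (-1.97, SE 0.15, adjusted p = 3.31e-07). The zona pellucida gene zp3a.1 rose from 56.02, 80.7 and 82.4 CPM to 258, 255 and 306 CPM (1.88, SE 0.18, adjusted p = 2.31e-06), and zp3d.1 rose as well (1.26, SE 0.15). A single marker of ovarian follicle cells, the steroid-making enzyme gene cyp17a1, was abundant in the 1-cell mutants and fell from 180.2, 171 and 156 CPM to 22.1, 12.2 and 21.7 CPM (-3.19, SE 0.23). In wild type it stood at 161 and 14.9 CPM.

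Most of the mutant change was shared with wild type. In wild type 5857 of 11905 genes (49.2%) changed, 2871 up and 2986 down, and 3620 (30.4%) did so by at least 1 log2 unit. Of 11098 genes tested in both genotypes, 3802 were called in the same direction, which is 73.5% of the mutant and 66.7% of the wild-type calls, and 59 were called in opposite directions. The comparisons share no library. The 1-cell libraries of both genotypes carry a numbering of their own, however. A batch of 1-cell libraries would enter both changes alike and cannot be told apart from a shared change of stage. Across these genes the log2 changes had r = 0.709, a description over genes that are not independent. Of the 1310 genes called in mutants only, 273 passed the test of the difference itself, as did 250 of the 1836 called in wild type only.

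The test of that difference, the interaction of genotype and stage, called 898 of 13055 genes (6.88%). The mutant change was above the wild-type change for 497 and below it for 401; with RLE size factors the split was 435 and 443. The estimate was at least 1 log2 unit for 627 of them (4.8% of the genes tested), of which 322 (2.47%) were above and 305 (2.34%) below. The count of 898 rested on few libraries. It was 502 without wild-type 256-cell replicate 3, 547 without mutant 256-cell replicate 3 and 576 without wild-type 256-cell replicate 2. Opposite calls were shared out as 32 genes that rose in mutants and fell in wild type, and 27 that did the reverse. The gap between genotypes was larger at the 256-cell stage for 446 of the 898 genes and larger at the 1-cell stage for 452. For 739 of them the gap changed sign, so that the genotype with the higher level at the 1-cell stage had the lower level at the 256-cell stage. The interaction is the difference between these gaps, so choosing genes by it favours gaps of opposite sign. The gaps themselves were not tested, and these counts describe the chosen genes only.

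**Figure D5:**
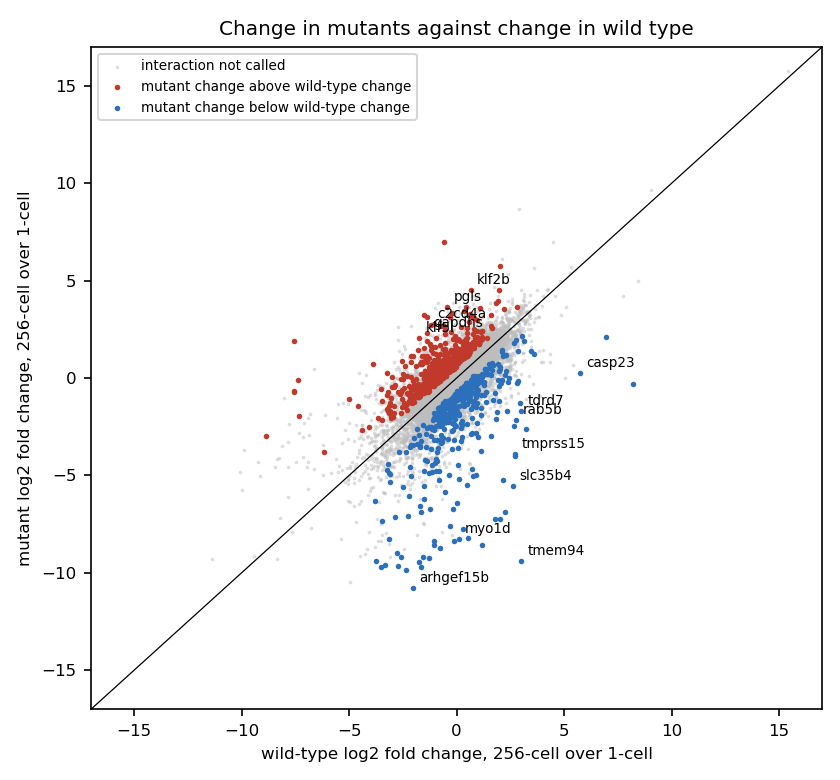
Each point is a gene tested in both genotypes, with the log2 fold change from 1-cell to 256-cell in wild type on the x axis and in rif1 mutants on the y axis; the line marks equal change. Coloured points passed the interaction test (adjusted p under 0.05), and tmem94, slc35b4 and tmprss15 lie at the lower right, falling in mutants and rising in wild type.

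Some transcripts had almost no count left in 256-cell mutants and were still present in wild type. The guanine nucleotide exchange factor gene arhgef15b stood at 131, 106 and 66.97 CPM in the 1-cell mutants and at 0, 0 and 0.136 CPM in the 256-cell mutants. The wild-type 256-cell libraries held 40.3, 30.04 and 44.98 CPM, down from 158 CPM. The mutant fall was a 2399-fold ratio of counts, with a 95% interval of 430.2 to 94782 that covers counting error only, and the interaction was -8.74 log2 units (SE 0.61, adjusted p = 1.72e-09). The membrane protein gene tmem94 fell in mutants from 11.4, 12.3 and 7.52 CPM to no count in any library and rose in wild type from 4.55 to 36.1 CPM. At dome the mutant levels of tmem94 and arhgef15b were 14.9 and 20.9 CPM. The unconventional myosin gene myo1d had 1 count left in the 256-cell mutants. This was a 410.4-fold ratio of counts (95% interval 73.3 to 16244), beside 8.99 and 9.51 CPM in wild type. The mutant level of myo1d at dome was 13.3 ± 11.9 CPM (SD, n = 3).

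A similar reversal was seen in slc35b4, a nucleotide sugar transporter gene, at 21.2, 10.3 and 28.4 CPM and then 0.661, 0 and 0.545 CPM in mutants. In wild type it rose from 2.95 to 18.03 CPM, and the interaction was -8.13 (SE 1.19, adjusted p = 0.000353). Its mutant level at dome was 19.4 CPM. The protease gene tmprss15 fell from 9.24 to 0.585 CPM in mutants and rose from 6.47 to 42.4 CPM in wild type (-6.57, SE 0.73). At dome it stood at 1.81 CPM in mutants. For casp23, a caspase gene, the gap lay mainly at the 1-cell stage: mutants stood at 22.6 and 27.6 CPM, wild type at 0.446 and 25.6 CPM. The germ granule gene tdrd7 rose in wild type, from 2.52 to 20.5 CPM, with no change called in mutants (1.98 and 0.587 CPM). The endosomal GTPase gene rab5b had a mutant change of -2.17 (SE 0.85), not called, against a wild-type rise of 2.77 (SE 0.77). Its interaction call was lost without wild-type 256-cell replicate 2 (adjusted p = 0.0577) or mutant 1-cell replicate 1 (0.0888), and that of tdrd7 in the fit of all 12 groups (0.103).

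Among uniquely named genes with at least 10 counts in each of the 4 groups, the mutant change exceeded the wild-type change most for pgls, an enzyme gene of the pentose phosphate pathway. It went from 1.25, 4.73 and 0.426 CPM to 20.5, 34.6 and 29.03 CPM in mutants and from 19.7 to 14.4 CPM in wild type (4.10, SE 0.63, adjusted p = 0.000192). The gap between genotypes lay mainly at the 1-cell stage there, as it did for c2cd4a (3.97, SE 0.85) and klf5l (3.79, SE 0.98). For klf2b it lay mainly at the 256-cell stage, with 18.4 CPM in mutants and 3.61 CPM in wild type (3.87, SE 0.99, adjusted p = 0.0176). The glycolytic gene gapdhs rose in mutants from 1.61 to 8.14 CPM, beside 3.25 and 1.23 CPM in wild type (3.72, SE 1.11, adjusted p = 0.0412). The interaction call of gapdhs was lost when any of 9 of the 13 libraries was left out (adjusted p = 0.0684 to 0.112). That of klf2b was lost without wild-type 256-cell replicate 3 (0.0521) or mutant 256-cell replicate 2 (0.0670), and that of klf5l without wild-type 256-cell replicate 3 (0.0531) or wild-type 1-cell replicate 2 (0.0632). In 1 fit of all 12 groups of the series, pgls (0.0724) and c2cd4a (0.169) were not called.

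Among 24 oocyte and egg genes, the mutant change was above the wild-type change for 9 and below it for 1, beside 3.81% and 3.07% over all genes. Those above, named after their values were seen, were the zona pellucida genes zp2.1, zp2.2, zp2.3, zp2.5, zp2.6 and zp3a.1, the oocyte growth factor gene bmp15, the maternal-effect gene zar1, and org. The zona pellucida genes are close paralogs, so their single values are uncertain. All 9 stood lower in the 1-cell mutants than in the 1-cell wild type on average, and higher at the 256-cell stage. Choosing genes by the interaction favours such a change of sign. The gene org went from 7406 to 3139 CPM in mutants and from 14061 to 2525 CPM in wild type, and zp2.6 from 71.7 to 41.2 and from 105 to 16.9 CPM. The gene below was mos, which fell further in mutants (-1.001, SE 0.20). Without mutant 256-cell replicate 3, the count was 6 of 25 above and 1 below.

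The respiratory chain had 15 of 86 members with a higher change in mutants (17.4%) and 1 with a lower (1.16%). Over all genes tested these shares were 3.81% and 3.07%. In wild type 30 of 84 members rose and 26 fell, beside 24.1% and 25.1% over all genes tested in wild type. The summed level of the list there went from 12355 to 14695 CPM down to 10793 to 12118 CPM. The ATP synthase gene atp5f1b, chosen after its values were seen, went from 1166 ± 65.7 to 1881 ± 217 CPM in mutants and from 1677 ± 272 to 1437 ± 208 CPM in wild type (SD, n = 3, and n = 4 in the wild-type 1-cell group). Without mutant 256-cell replicate 3 the count was 8 above and 0 below. Ribosomal protein genes gave 7 above (9.21%) and 1 below (1.32%) of 76, and none above without that library. Of 53 mitotic genes 7 were above (13.2%), including pttg1 (securin, 1.85, SE 0.25) and bub3 (1.59, SE 0.24), and 2 were below (3.77%). Of 31 centrosome, cytoskeleton and cleavage genes 7 were above (22.6%) and 2 below (6.45%). Without mutant 256-cell replicate 3, 4 of these were above and 2 below.

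At dome, most larger rises and falls still stood on the same side of their 1-cell mean. Of the 1684 larger rises, 1386 still stood above their 1-cell mean in the mutants at dome and 1161 had dropped below their 256-cell mean, with a median level of 34.9 CPM. Of the 2002 larger falls, 1902 remained below their 1-cell mean, with a median of 8.27 CPM at both the 256-cell and dome stages. Of these 2002 falls, 1022 stood above and 958 below their 256-cell mean at dome. These counts compare means of 3 libraries and were not tested. The genes were chosen on the same 1-cell and 256-cell libraries. This favours a move back from the 256-cell level and also a dome mean on the same side of the 1-cell mean. The same counts over all genes tested are not given.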

How the data were processed

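Zebrafish embryos were profiled by QuantSeq 3′ mRNA sequencing with 75 bp single-end reads, per the labels' protocols. STAR and HTSeq and the genome build GRCz11 are named in the submitters' processing notes, which give no versions; whether counting used strand is not given in the sources used here. The values used are the raw read counts per gene that the authors deposited (31877 entries, 28877 paired with a symbol, 6086 of which share it with another entry). Libraries held 5834353 to 9224450 counts in the mutant 1-cell and 256-cell groups and 6240095 to 14143931 in wild type. Low genes are limited by counting.

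Genes passing filterByExpr were tested with edgeR 4.0.16 (TMM scaling, robust quasi-likelihood fits, R 4.3.3, limma 3.58.1) for mutant 256-cell against 1-cell, for the same in wild type, and, in a fit of the 4 groups, for the difference between these changes (the interaction). P-values were adjusted by the Benjamini-Hochberg method over all genes tested, and a gene was called at an adjusted p under 0.05. DESeq2 1.42.0, other scalings, filters and fits, and leaving out each library were the alternatives. The code was tested on simulated data. Tables were made with Python 3.11.15 and pandas 2.3.3.

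Named genes were rif1 and genes changed by at least 1 log2 unit, with at least 5 CPM in the higher group and no overlap between groups. From these came the 6 largest rises and falls with at least 10 counts in the lower group, the 3 most abundant rises from and falls to no count, and the 5 largest rises and falls in CPM. For the interaction, the 5 highest and 5 lowest estimates with at least 10 counts in each group and the 3 smallest p-values among the others were named. From each list, at most 4 called members with the largest change were named. Other members in the text were chosen after their values were seen. The libraries compared and the gene lists were chosen with earlier results of these data known. Levels at 0 were set against 3 counts per library. Intervals and floors cover counting error only, since reads without molecular identifiers are not independent molecules. Mitochondrially encoded genes were not analysed here. No sequences are shown, and some genes that the rule names are not reported here.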

Additional observations from a re-analysis of the deposited data

Results flagged for a closer look

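The change from the 1-cell to the 256-cell stage differed between the genotypes for 898 genes by the interaction test (edgeR's quasi-likelihood test, adjusted p under 0.05). Among the named genes, the mutant change was above the wild-type change by 4.10 log2 units for pgls, 3.97 for c2cd4a, 3.87 for klf2b, 3.79 for klf5l and 3.72 for gapdhs. The interaction estimate was -8.13 for slc35b4, -6.57 for tmprss15, -5.43 for casp23, -4.92 for rab5b and -4.64 for tdrd7. It was -8.74 for arhgef15b, -12.52 for tmem94 and -8.36 for myo1d, where a group with no or almost no count makes the size of the estimate depend on the prior count.

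In 3 named genes, 1 of the 4 wild-type 1-cell libraries stood apart from the rest; chance marks about 1 in 20 groups. The library that stood apart held 0.0941 CPM of krt4, 101.3 CPM of h2ax2 and 3666 CPM of eif1b. For krt4 this was 1 count, with none in the other wild-type 1-cell libraries, so it lies within counting error.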

How the results depend on the processing

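No called gene changed direction under any alternative run. Leaving out 1 library at a time gave 4425 to 5463 calls for the mutant change (3404 to 3722 at 1 log2 unit or more), 5227 to 5572 for the wild-type change (3391 to 3625) and 502 to 1156 for the interaction (435 to 813), and rif1 changes of -1.16 to -0.49. The interaction gave its fewest calls without the 256-cell libraries wild-type replicate 3 (502), mutant replicate 3 (547) and wild-type replicate 2 (576), and the cause was not tested. Library totals shifted the median by 0.12 in mutants and left 53.6% of calls higher, beside 47.0%; in wild type 55.8% were then higher. DESeq2 called 5592 genes in mutants and 1256 for the interaction. A fit of all 12 groups called 4701 genes in mutants (3899 shared) and 669 for the interaction (445 shared).

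Replicates with the same number did not deviate together (r = -0.0018 to 0.0291), so no pairing by number was seen. These correlations carry the noise of single libraries. They cannot settle whether libraries with the same number share a clutch, which the labels do not state. With the replicate block, 5114 genes were called in mutants, 5460 in wild type and 730 for the interaction. Over named genes and list members, 1724 alternative values kept their call and 46 lost it, among them krt4 with DESeq2 (adjusted p = 0.0558), klf2b for the interaction without wild-type 256-cell replicate 3 (0.0521) and gapdhs for the interaction with the replicate block (0.0540) and without any of 9 libraries. By list, the called members depended on the setting for early zygotic genes (3 to 22 higher), enveloping layer markers (0 to 7 higher) and signal recognition particle RNA (13 to 40 lower), numbered histone genes (5 to 11 lower), small nucleolar RNAs (8 to 15 lower), numbered zinc finger genes (15 to 35 lower) and germ plasm genes (4 to 10 lower). Depth limits low genes: with at least 10 counts required in every library, 8896 genes were tested in mutants and 4744 called.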
